A study of Homo sapiens with 4 samples.

Results

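The 29 genes described here encode the proteins of the small (40S) subunit of the cytosolic ribosome. They were chosen by symbol, as the RPS genes of the subunit together with FAU and RACK1, and all 29 were found among the 60719 genes in the count tables. The mRNAs were read in RNA that came down with V5-tagged KIF5A, a neuronal kinesin heavy chain that carries cargo along microtubules. KIF5A was expressed from transfected DNA in a human neuroblastoma cell line, SK-N-AS, and V5 is a short peptide tag caught by antibody-coated magnetic beads. One group was d27, the mutant KIF5A, whose change the labels do not spell out, and the other was WT, the wild-type KIF5A. Each group had 2 precipitates, numbered 1 and 2, and all 4 libraries came from transfected cells of the same line about a day after transfection. No input or mock-precipitated library is used here, so values compare d27 with WT and say nothing of enrichment over the cells' own RNA. The labels do not say that the precipitates came from separate cultures, so the spread behind each p-value is that of these 4 libraries and may be technical.

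The small subunit holds the mRNA, reads its codons and is where initiation factors and the first tRNA assemble. It is built in the nucleolus on a precursor rRNA, and in its finished form it has a head, joined by a neck to a body with a side platform, so the proteins can be grouped by where they sit. Most ribosomal protein mRNAs start with a C followed by a run of pyrimidines, the 5′ terminal oligopyrimidine (TOP) motif, through which growth signals control how well they are translated. In neurons, ribosomal protein mRNAs are known to be present in axons and dendrites as well as in the cell body.

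The starts of the mRNAs are shown because this motif is the sequence feature that the family is best known for. RefSeq promoter sequences (GRCh38.p14) matched 26 of the 29 genes; RPS2, RPS15A and RPS20 had no entry. Each line gives 10 bases before and 20 bases from the annotated first base, 5′ to 3′ on the gene's strand, and the capitals mark the unbroken run of C and T that begins with a C at that first base. The first 5 are the mRNAs with the lowest p-values that carry the motif, the next 3 are RPSA, RPS19 and RPS10, in which the d27 values lay above the WT values, and the last pair, RPS29 and RPS4X, has no such run.
FAU: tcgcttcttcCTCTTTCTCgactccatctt
RPS14: ccctcccactCTCTCTTTCCggtgtggagt
RPS21: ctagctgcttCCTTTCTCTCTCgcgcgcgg
RPS25: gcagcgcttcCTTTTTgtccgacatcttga
RPS24: aatcgtggttCTCTTTTCCTCCTTggctgt
RPSA: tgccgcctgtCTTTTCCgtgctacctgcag
RPS19: ccccgtcgttCCCTTTCCCCTggctggcag
RPS10: catgctccttCCTTTCCagccccggtaccg
RPS29: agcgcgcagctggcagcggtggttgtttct
RPS4X: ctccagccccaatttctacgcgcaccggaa

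These windows lie at chr11:65122115-65122144 (FAU, minus strand), chr5:150449720-150449749 (RPS14, minus), chr20:62387093-62387122 (RPS21, plus), chr11:119018324-119018353 (RPS25, minus) and chr10:78033853-78033882 (RPS24, plus). The other windows lie at chr3:39406710-39406739 (RPSA, plus), chr19:41860245-41860274 (RPS19, plus), chr6:34426050-34426079 (RPS10, minus), chr14:49598691-49598720 (RPS29, minus) and chrX:72277229-72277258 (RPS4X, minus). A motif was counted where an annotated start of the gene was a C followed by at least 4 more C or T, read on the gene's strand only. Of the 26 genes matched, 20 (76.9%) held it, with runs of 6 to 14 bases and a median of 9. Counted by gene in the same way, 756 of the 10045 tested coding genes with an entry (7.53%) held it, as did 4.07% of all 35116 promoters in the table. The 6 genes without it were RPS4X, RPS7, RPS15, RPS26, RPS28 and RPS29. A match describes the annotated start and not the start used in these cells.

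Levels are given as CPM, gene counts scaled to library size with edgeR's TMM factors, and log2 fold changes are d27 over WT. The 4 libraries held 18335151 and 10483082 gene counts in d27 and 8142869 and 10811134 in WT, replicates 1 and 2 in each case. The 29 mRNAs held 78058 and 57901 of these counts in d27 and 56615 and 59137 in WT. KIF5A itself took 10.8% and 11.2% of gene counts in d27 against 9.03% and 14.8% in WT, and did not pass the test (log2 fold change -0.20 ± 0.49 SE, edgeR adjusted p = 0.821). Of 8 markers of adrenergic neuroblastoma cells, 7 were tested, with summed levels of 738 and 591 CPM in d27 and 851 and 832 CPM in WT. TH and DBH, which define catecholamine synthesis, were at or near 0. The 8 markers of mesenchymal neuroblastoma cells summed to 3523 and 3335 CPM in d27 and 4223 and 4760 CPM in WT. None of these 8 passed the test, and 4 had log2 fold changes below 0 (VIM, COL1A1, FN1 and NOTCH2) and 4 above 0 (CD44, SNAI2, YAP1 and PRRX1). Among 3 markers of other cell types, which summed to 101 and 80.0 CPM in d27 and 191.5 and 164 CPM in WT, EPCAM was at 0 in every library and PECAM1 was at 0.22 to 1.48 CPM. PTPRC, which encodes the leukocyte surface protein CD45, had 101 and 79.8 CPM in d27 against 190 and 162 CPM in WT (log2 fold change -0.96 ± 0.24 SE, edgeR adjusted p = 0.0433), a call lost with any 1 library left out (adjusted p 0.0504 to 0.204). The part of these marker levels in the ribosomal protein results was not tested.

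Most of the 29 mRNAs had lower levels in d27 than in WT precipitates, but only FAU passed the test. With edgeR's quasi-likelihood test and Benjamini-Hochberg adjustment over all 14909 genes tested, FAU was lower in d27 and no small subunit mRNA was higher, so 28 of 29 did not pass. Over all genes tested, 3.70% were called lower and 8.00% were called higher in d27, so 1 of 29 called lower (3.45%) is near the background share. The count changed with the method: DESeq2 called 7 of the 29 lower (24.1%), beside 8.26% of all genes, and without d27 replicate 2 edgeR called 5 (17.2%), beside 3.85%. Of the 29 log2 fold changes, 23 were below 0, and their median was -0.46, beside -0.0004 over all genes tested and 0.06 over protein-coding genes. Both d27 values lay below both WT values in 19 of the 29 mRNAs (65.5%), beside 29.8% of all genes tested. Both d27 values lay above both WT values in 3 of the 29, which were RPSA, RPS19 and RPS10, beside 31.4% of all genes tested. In the other 7 the groups overlapped. At an unadjusted edgeR p under 0.05 there were 10 of the 29, all with lower d27 values. Of all 14909 genes tested, 4571 had such a p, of which 2032 were lower in d27. All 29 passed the filter on low counts. In these bulk precipitates, fewer cells holding an mRNA, less of it per cell and less of it bound to the tagged protein cannot be told apart.

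**Figure D1:**
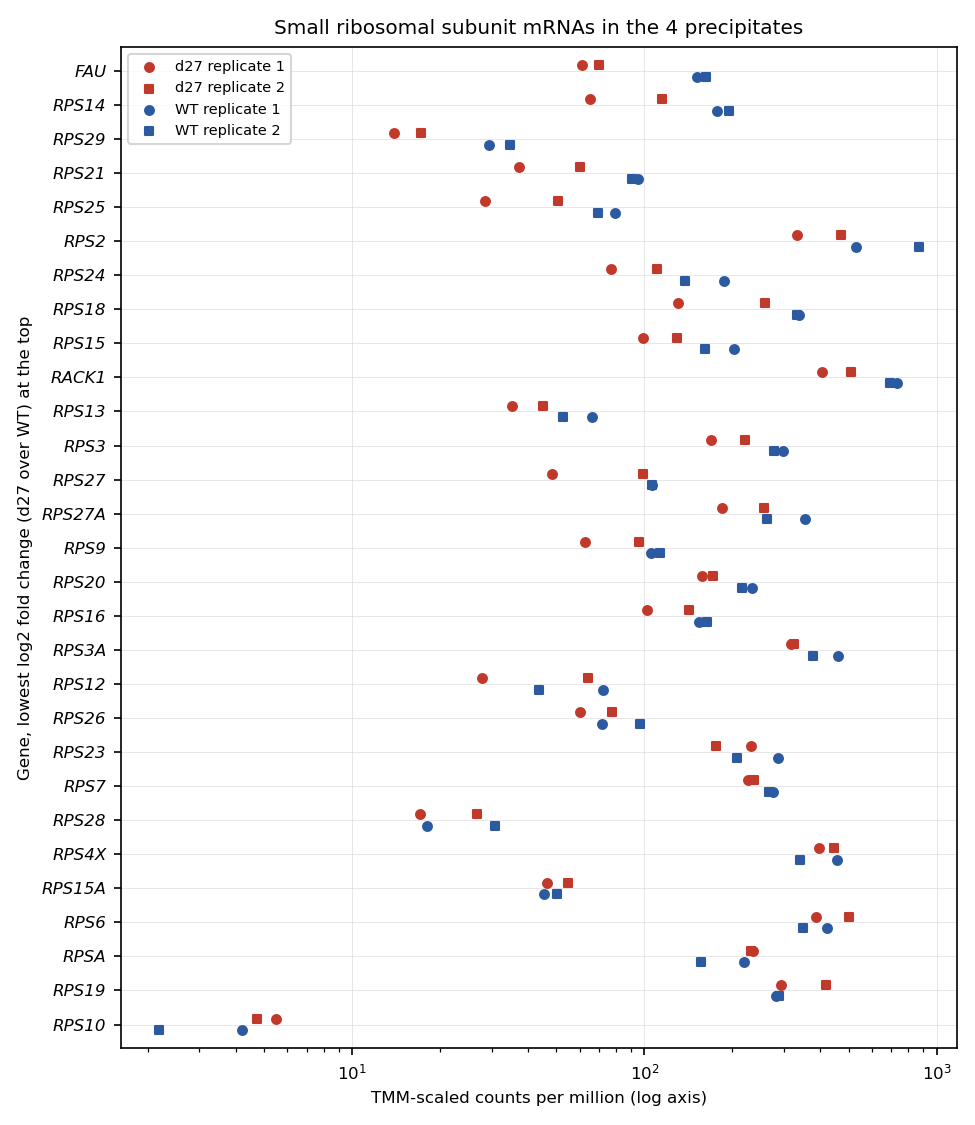
Level of each of the 29 small subunit mRNAs in each precipitate, in TMM-scaled CPM on a log axis, with 1 gene per row and the lowest log2 fold change (d27 over WT) at the top; red is d27, blue is WT, circles are replicate 1 and squares replicate 2. The red points lie left of the blue points in 19 rows, right of them in 3 rows (RPSA, RPS19 and RPS10) and among them in 7 rows.

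Among the 16 proteins of the body and platform, 12 log2 fold changes were below 0, with a median of -0.42 and a range of -1.26 to 0.32. FAU encodes a ubiquitin-like protein fused to a ribosomal protein of the body, from which it is cleaved. FAU had 61.0 and 70.1 CPM in d27 precipitates, against 151 and 162 CPM in WT precipitates. The fitted d27 level was 0.418 times the WT level, and the groups were far apart relative to the spread within each. FAU averaged 65.5 ± 6.43 CPM in d27 and 157 ± 8.18 CPM in WT (SD, n = 2 each), and fell by 1.26 on the log2 scale (SE 0.23, edgeR adjusted p = 0.0188). Without d27 replicate 1 the log2 fold change was -1.14 and the adjusted p was 0.0738.

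FAU overlaps 2 other coding genes, and both had the opposite difference. SYVN1, which encodes a ubiquitin ligase of the endoplasmic reticulum, shares 398 exon bases with FAU on the same strand (21.6% of FAU's exon bases), and MRPL49, which encodes a protein of the mitochondrial ribosome, shares 282 (15.3%) on the opposite strand. SYVN1 had 113 and 116 CPM in d27 against 51.1 and 39.2 CPM in WT, and rose by 1.34 on the log2 scale (SE 0.25, edgeR adjusted p = 0.0191). MRPL49 had 90.2 and 114.5 CPM in d27 against 32.9 and 18.9 CPM in WT, and rose by 1.98 (SE 0.33, adjusted p = 0.0146). How the counting treated strand and overlap is not given in the sources used here, so the assignment of reads in the shared bases was not tested.

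**Figure D2:**
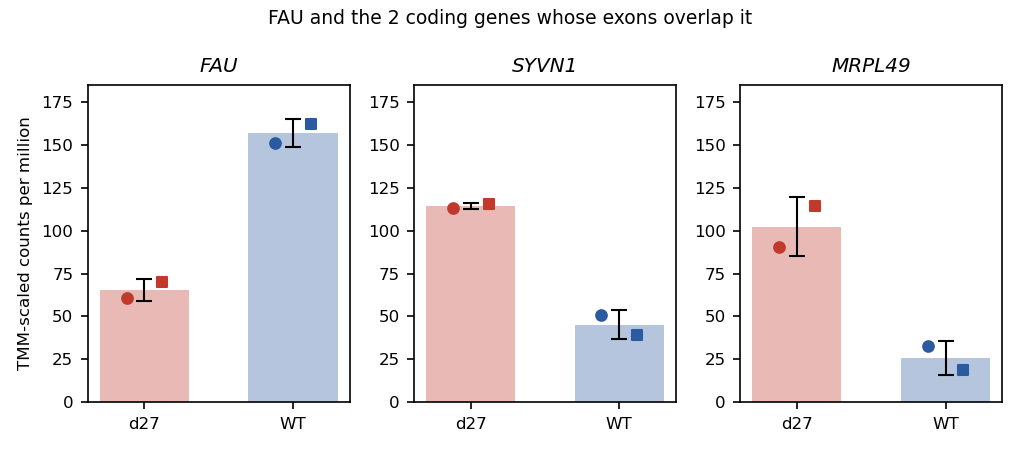
Levels of FAU and of SYVN1 and MRPL49, whose exons overlap it, in TMM-scaled CPM, with d27 (red) left of WT (blue); points are the 2 precipitates of each group, bars their mean and lines ± 1 SD. FAU is lower in d27 (65.5 against 157 CPM in WT), and SYVN1 (114 against 45.1 CPM) and MRPL49 (102 against 25.9 CPM) are higher.

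RPS14, a platform protein whose loss on 1 chromosome copy underlies the anaemia of a myelodysplastic syndrome, had 65.2 and 115 CPM in d27 against 177 and 195 CPM in WT. The d27 values lay apart from each other, and both lay below WT. Its log2 fold change was -1.05 ± 0.30 (SE), which did not pass (edgeR adjusted p = 0.0622). RPS21, which encodes a small protein of the body that contacts RPSA, had 37.4 and 60.1 CPM in d27 against 94.8 and 91.1 CPM in WT, with a log2 fold change of -0.93 ± 0.29 (adjusted p = 0.0722). RPS24, 1 of the genes mutated in Diamond-Blackfan anaemia, had 76.7 and 110 CPM in d27 against 188 and 138 CPM in WT, with a log2 fold change of -0.80 ± 0.28 (adjusted p = 0.0996). Both groups stood apart for all 3 of these mRNAs, by the least in RPS24.

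RPS2, which lies where mRNA enters the subunit, had 332 and 469 CPM in d27 against 530 and 870 CPM in WT. Its log2 fold change was -0.81 ± 0.33 (edgeR adjusted p = 0.144), and the WT replicates differed more from each other than the groups did at their nearest values. RPSA, also known as the laminin receptor, had 235 and 231 CPM in d27 against 218 and 156 CPM in WT, with a log2 fold change of 0.32 ± 0.26 (adjusted p = 0.437). RPSA was the only mRNA of the body and platform group in which both d27 values were above both WT values. RPS15A, which encodes a protein that binds the central domain of the rRNA, had 46.6 and 54.8 CPM in d27 against 45.5 and 50.2 CPM in WT, and the groups overlapped (log2 fold change 0.08 ± 0.25, adjusted p = 0.856).

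The other 9 body and platform mRNAs had log2 fold changes of -0.57 to 0.20, and none passed. Values of d27 lay below those of WT for RPS13 (-0.57), the zinc-binding platform protein RPS27 (-0.53), RPS9 (-0.46), which lines the mRNA entry, RPS3A (-0.38), a platform protein, and RPS7 (-0.23), which can also bind MDM2. RPS27 had 48.5 and 98.6 CPM in d27 against 106 CPM in both WT precipitates, so d27 replicate 1 alone stood well below. The groups overlapped for RPS26 (-0.29), which lies where mRNA leaves the subunit, for RPS23 (-0.28), which lies at the decoding centre, for RPS4X (0.08), the X-linked member, and for RPS6 (0.20), the main ribosomal target of S6 kinases. RPS6 had 385 and 503 CPM in d27 against 422 and 350 CPM in WT. The signs of RPS4X, RPS6 and RPS15A turned with an offset for mRNA length and GC content (to -0.0986, -0.0299 and -0.0781), and that of RPS15A also with pseudogene counts added (-0.0555).

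Among the 13 proteins of the head, 11 log2 fold changes were below 0, with a median of -0.49 and a range of -1.04 to 0.68, and none passed the test. RPS29, a small zinc-binding protein of the head, had 13.9 and 17.2 CPM in d27 against 29.4 and 34.6 CPM in WT. Its groups stood apart by more than the spread within either, with a log2 fold change of -1.04 ± 0.29 (SE, edgeR adjusted p = 0.0543). RPS25, which is needed for initiation at some viral internal ribosome entry sites, had 28.5 and 50.6 CPM in d27 against 79.4 and 69.5 CPM in WT. Both d27 values were below WT, d27 replicate 1 by the most, with a log2 fold change of -0.92 ± 0.32 (adjusted p = 0.0979). RPS29 shares 468 exon bases (4.75%) with LRR1 on the opposite strand and 403 (4.09%) with the pseudogene RPL32P29 on the same strand. Such overlaps were common, since 18 of the 29 small subunit genes shared exon bases with another annotated gene.

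RPS18, which contacts the large subunit from the head, had 130 and 258 CPM in d27 against 337 and 332 CPM in WT. The WT values nearly coincided while the d27 values differed by about as much as the groups did (log2 fold change -0.79 ± 0.34, edgeR adjusted p = 0.160). RACK1, a scaffold protein on the back of the head that binds signalling kinases, had 404 and 511 CPM in d27 against 730 and 691 CPM in WT, and the groups did not overlap. Its log2 fold change was -0.63 ± 0.26 (adjusted p = 0.147).

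RPS19, the gene most often mutated in Diamond-Blackfan anaemia, had 292 and 419 CPM in d27 against 281 and 289 CPM in WT. The lower d27 value was just above the WT values, and the log2 fold change was 0.32 ± 0.27 (edgeR adjusted p = 0.452). RPS10, a head protein that is marked with ubiquitin on stalled ribosomes, had 5.50 and 4.74 CPM in d27 against 4.21 and 2.18 CPM in WT, with a log2 fold change of 0.68 ± 0.56 (adjusted p = 0.442). These RPS10 values rest on 101 and 51 counts in d27 and 37 and 21 counts in WT. RPS10 shares 929 exon bases (39.4%) with the readthrough gene RPS10-NUDT3, which was listed at 0 in every library, and reads that overlap both genes can be left out of both. RPS28, a small protein near the mRNA exit, had 17.0 and 26.8 CPM in d27 against 18.1 and 30.9 CPM in WT, and the groups overlapped (-0.17 ± 0.37, adjusted p = 0.799).

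The remaining 6 head mRNAs had log2 fold changes of -0.67 to -0.34. Values of d27 lay below those of WT for RPS15 (-0.67), which is needed for export of the precursor subunit from the nucleus, for RPS3 (-0.56), which lies at the mRNA entry and also has DNA repair activity, for its neighbour RPS20 (-0.45) and for RPS16 (-0.38), whose tail reaches the bound tRNA. RPS27A, which like FAU is made as a fusion, in its case with ubiquitin itself, had 184 and 256 CPM in d27 against 355 and 262 CPM in WT (-0.49 ± 0.28, edgeR adjusted p = 0.276). The RPS27A groups were separated only by the narrow gap between d27 replicate 2 and WT replicate 2. RPS12, a protein of the head's beak, had 27.9 and 64.0 CPM in d27 against 72.2 and 43.4 CPM in WT, so the groups overlapped (-0.34 ± 0.42, adjusted p = 0.634).

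**Figure D3:**
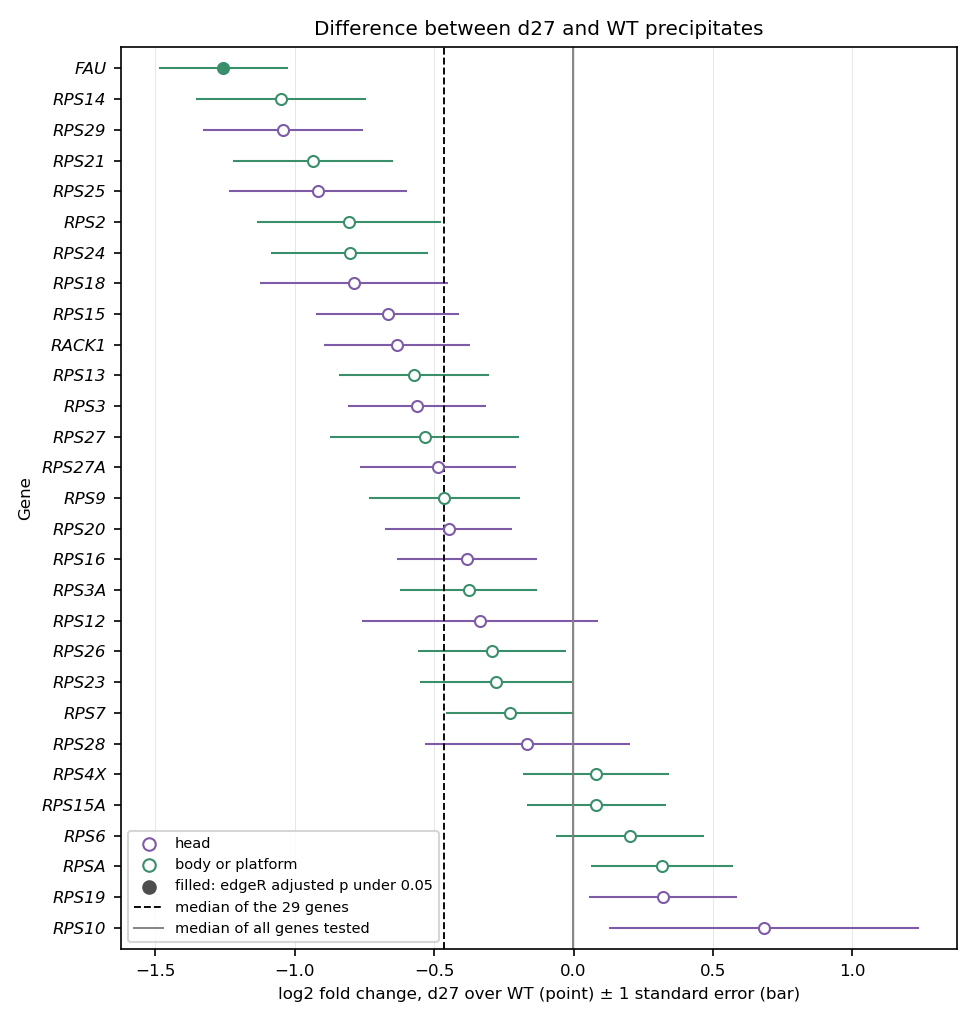
Log2 fold change (d27 over WT) of each small subunit mRNA, with bars of ± 1 SE from edgeR; purple is head, green is body or platform, and the filled point marks an adjusted p under 0.05. FAU (-1.26) is the only filled point, 23 points lie left of 0, and the dashed line marks the median of the 29 (-0.46) beside that of all genes tested (solid line, -0.0004).

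The motif at the start was set beside the fold changes as a description. The 20 small subunit mRNAs with the motif had a median log2 fold change of -0.51 and the 6 without it -0.26, and RPS29, without it, had a value of -1.04. The 736 other tested coding genes with the motif had a median of 0.04, with 28 lower and 86 higher in d27. The 9289 without it had a median of 0.05, with 375 lower and 880 higher.

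The 29 mRNAs spanned a wide range of levels. Mean TMM-scaled levels over the 4 libraries ran from 4.16 CPM (RPS10) to 584 CPM (RACK1). Per kilobase of mRNA (GENCODE 29 lengths of 344 to 3437 bases, median 847, beside 2742 over all tested genes), the highest were RPS2 with 559, RPS18 with 431 and RACK1 with 416 CPM per kb. The lowest were RPS10 with 6.46, RPS28 with 17.5 and RPS15A with 36.1 CPM per kb, and the median was 179. RPS2 was highest per kilobase in both groups, with 407 CPM per kb in d27 and 711 in WT. By CPM the top mRNA was RACK1 in 3 libraries and RPS2 in WT replicate 2, and RPS10 was lowest in all 4.

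Ribosomal protein genes have many processed pseudogenes, and reads that match several places are left out by the counting. Reads in several places made up 9.10% and 17.1% of all entries in d27 and 23.7% and 22.8% in WT. Their part in the lower d27 values was not tested. The files listed 476 genes named as pseudogenes of the 29, of which 225 had counts, and these held 5168 counts in all, beside 251711 in the genes themselves. Per 100 counts of the genes, pseudogenes held 1.72 and 2.00 in d27 and 2.04 and 2.56 in WT. The share was above 5 per 100 for RPS10 (25.7), RPS15A (7.78), RPS2 (7.04) and RPS12 (6.35). FAU had 3.49 per 100. With pseudogene counts added to each gene, FAU remained the 1 gene called.

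The precipitates of one group also differed from each other in these mRNAs. The d27 replicate 1 library was the lowest of the 4 for 22 of the 29, beside 28.3% of all genes tested. The d27 replicate 2 value was above that of replicate 1 for 26 of the 29, with a median ratio of 1.31, while over all genes it was above for 51.4%. In WT, replicate 2 was above replicate 1 for 10 and below for 19, with a median ratio of 0.947. The widest differences between replicates on the log2 scale, replicate 2 over replicate 1, were those of RPS12 (1.20 in d27 and -0.73 in WT), RPS27 (1.03 in d27), RPS18 (0.99 in d27) and RPS10 (-0.95 in WT). FAU had 0.20 in d27 and 0.11 in WT. Across the 29 mRNAs, log2 CPM correlated with Pearson's r of 0.975 between the d27 replicates and 0.974 between the WT replicates, and with r of 0.917 to 0.966 between d27 and WT libraries. These correlations are across genes of the same libraries and are given as a description.

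**Figure D4:**
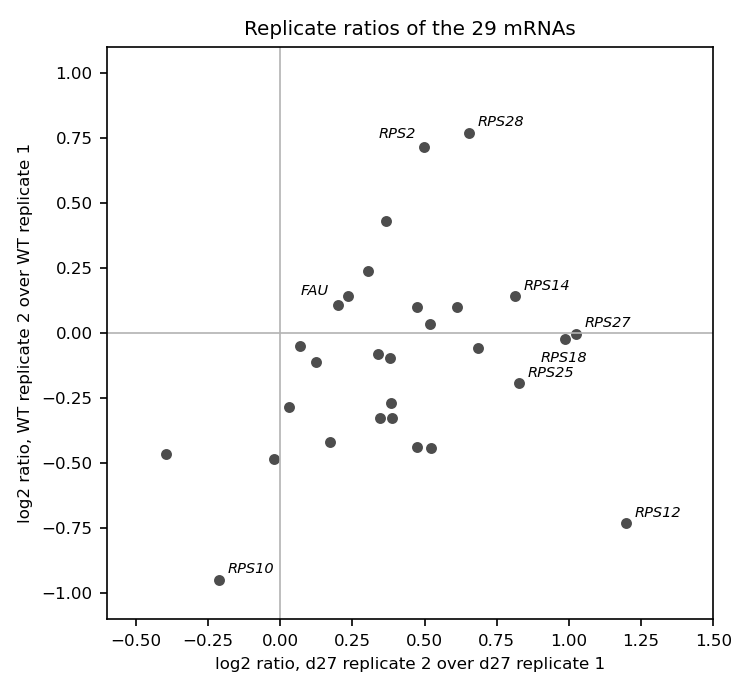
Log2 ratio of replicate 2 to replicate 1 of each small subunit mRNA, in d27 (x axis) and in WT (y axis), from TMM-scaled CPM; each point is a gene. On the d27 axis 26 of 29 points lie right of 0, and RPS12 stands apart with 1.20 in d27 and -0.73 in WT.

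As a share of all gene counts, the 29 mRNAs held 0.426% (95% exact binomial interval 0.423 to 0.429) and 0.552% (0.548 to 0.557) in d27. In WT they held 0.695% (0.690 to 0.701) and 0.547% (0.543 to 0.551). The intervals treat reads as independent draws and do not cover the spread between precipitates. The reads carried no molecular identifiers, so repeated copies of a molecule could count separately. The share averaged 0.489 ± 0.0895% in d27 and 0.621 ± 0.105% in WT (SD, n = 2 each). The groups overlapped, since d27 replicate 2 was above WT replicate 2, and an exact permutation test of 2 against 2 libraries cannot give a two-sided p under 0.333. Set against all entries, with reads outside genes, in several genes or in several places included, the share was 0.316% and 0.349% in d27 and 0.365% and 0.288% in WT, a difference of 0.0059 percentage points (d27 minus WT) in place of -0.132. Those entries outside single genes made up 25.9% and 36.8% of all entries in d27 and 47.6% and 47.3% in WT.

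**Figure D5:**
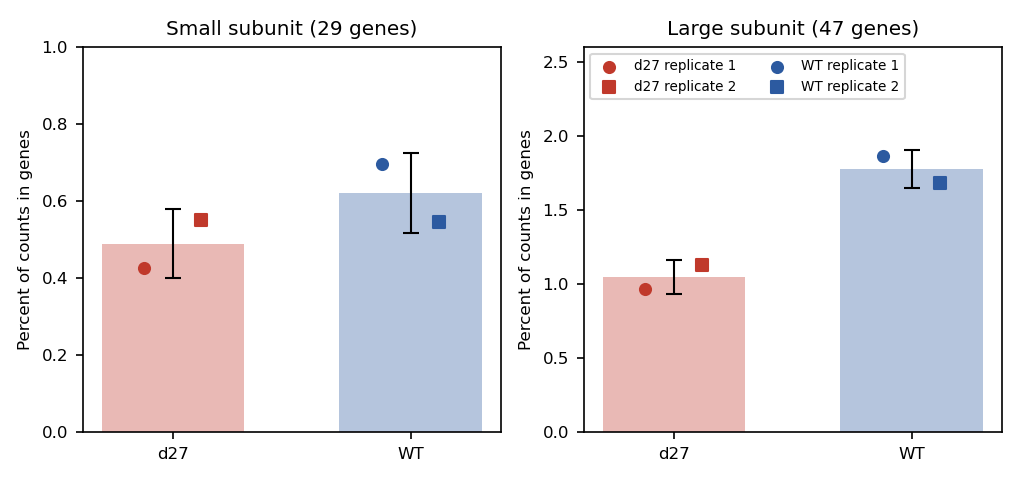
Percent of gene counts held by the 29 small subunit mRNAs (left) and by the 47 large subunit mRNAs (right), with d27 (red) left of WT (blue); points are the 2 precipitates of each group, bars their mean and lines ± 1 SD, and the y axes differ. The small subunit shares overlap (0.426% and 0.552% in d27, 0.695% and 0.547% in WT), and the large subunit shares do not (0.967% and 1.13% in d27, 1.87% and 1.68% in WT).

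The mRNAs of the large subunit, with which the small subunit pairs, were read in the same way. Of 47 tested, 5 were lower in d27 (10.6%, beside 3.70% of all genes tested) and 0 higher (beside 8.00%), 42 did not pass, and the median log2 fold change was -0.64. RPLP2 (-1.48, edgeR adjusted p = 0.0169), RPL19 (-1.18, adjusted p = 0.0331) and RPLP0 (-1.75, adjusted p = 0.0340) had the lowest p-values, and RPLP0 and RPLP2 encode proteins of the stalk that recruits elongation factors. None of the 5 passed without d27 replicate 1, where these 3 had adjusted p of 0.0822, 0.246 and 0.101. Without d27 replicate 2, RPL19 (0.0725) and RPLP0 (0.0530) did not pass, nor did RPLP0 without WT replicate 2 (0.0593) or RPL19 with library totals as the scale (0.0520). The share of gene counts in large subunit mRNAs was 0.967% and 1.13% in d27 against 1.87% and 1.68% in WT, which did not overlap, and without RPLP0 it was 0.828% and 0.997% against 1.55% and 1.15%. Among 15 tested other genes known for the TOP motif, among them elongation and initiation factors, TPT1, NPM1, VIM and the noncoding host gene GAS5, 0 were called in either direction, with a median of -0.43, and EEF1D, an elongation factor subunit, had the lowest p (-0.94, adjusted p = 0.0592).

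Few of the genes that build or use the small subunit were called. Of 35 that assemble the 40S precursor, 2 were lower (5.71%) and 2 higher (5.71%), beside 3.70% and 8.00% of all genes tested, with a median log2 fold change of -0.04. UTP20, part of the early processing complex, had 125 and 115 CPM in d27 against 324 and 316 CPM in WT, and fell by 1.42 on the log2 scale (SE 0.23, edgeR adjusted p = 0.0142). IMP4, a partner of the U3 snoRNA, had 97.6 and 112 CPM in d27 against 47.1 and 47.5 CPM in WT, and rose by 1.14 (SE 0.23, adjusted p = 0.0248). BYSL, which acts late in 40S maturation, had 50.4 and 66.0 CPM in d27 against 28.8 and 17.5 CPM in WT, and rose by 1.33 (SE 0.33, adjusted p = 0.0394), a call lost without WT replicate 2 (adjusted p 0.0722) or d27 replicate 2 (0.0732) and with library totals as the scale (0.0670).

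Of 21 initiation factor genes that act on the free small subunit, 0 were lower and 2 (9.52%) were higher, beside 8.00% of all genes tested called higher, with a median of -0.17. EIF1, which guards the choice of start codon, had 622 and 767 CPM in d27 against 226 and 145 CPM in WT, and rose by 1.90 on the log2 scale (SE 0.31, edgeR adjusted p = 0.0139). EIF1AX, its partner at the decoding site, had 152.5 and 97.0 CPM in d27 against 51.6 and 38.7 CPM in WT, and rose by 1.47 (SE 0.30, adjusted p = 0.0253; 0.0795 without d27 replicate 1). UBB, a polyubiquitin gene set beside the fusions FAU and RPS27A, had 105 and 106 CPM in d27 against 218 and 229 CPM in WT, and fell by 1.08 (SE 0.23, adjusted p = 0.0261). That call was lost without d27 replicate 1 (adjusted p 0.108) or d27 replicate 2 (0.0637).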

How the data were processed

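The values are raw read counts per gene, deposited as 1 table per library; per the submitters' processing notes the authors counted reads with HTSeq on GRCh38 and used DESeq2, and per the labels' protocols RNA was depleted of ribosomal RNA and made into strand-marking libraries. No aligner, annotation release or counting setting is given in the sources used here. HTSeq's summary entries (25.9% and 36.8% of entries in d27, 47.6% and 47.3% in WT) entered neither library sizes nor tests.

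From these counts, genes were kept by edgeR's filterByExpr by group, with a minimum count of 10, scaled to library size, and a minimum total of 15. They were scaled by TMM and tested over all 14909 with edgeR 4.0.16 (R 4.3.3, quasi-likelihood, d27 over WT), with calls at an adjusted p under 0.05. Depth was 8142869 to 18335151 counts. Symbols were looked up by gene identifier, and positions, overlaps and lengths from GENCODE 29. The 29 genes were picked by name, and no measured value enters that rule, but the set, the lists and the rules were drawn up with earlier results of these data known. All 29 genes are named. Full values are given for those called, the 6 lowest p-values, and the 3 highest and lowest fold changes and levels per kilobase. From each context list up to 3 called genes are named, or otherwise the lowest p. The genes that overlap FAU, RPS10 and RPS29 were named outside this rule after their values were seen. Alternatives were DESeq2 1.42.0, other scalings and filters, a replicate block, each library left out, an offset for length and GC content, and pseudogene counts added.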

Additional observations from a re-analysis of the deposited data

How the results depend on the processing

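The count of small subunit mRNAs called lower in d27 was 1 as reported. It was 7 (24.1%) with DESeq2, beside 8.26% of all genes, 3 (10.3%) with no filter, beside 3.14%, 4 (13.8%) with at least 50 counts in 2 libraries, beside 8.48%, and 2 (6.90%) with the offset for mRNA length and GC content, beside 6.19%. Leaving out 1 library gave 0 to 5: 0 without d27 replicate 1, beside 0.431% of all genes, 5 (17.2%) without d27 replicate 2, beside 3.85%, and 5 without WT replicate 1, beside 13.1%. In the fit with a replicate block it was 8 (27.6%), beside 9.64%; the labels do not say that the numbers pair the libraries, and same-numbered libraries deviated with r = 0.134 over all genes. The count called higher was 0 in all 12 alternatives. FAU was called in 11 of the 12 (log2 fold change -1.33 to -1.14), RPS14 in 7, RPS21 in 6, RPS29 in 4, RPS2 and RPS25 in 3, and RPS18 and RPS24 in 2.

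The median of the 29 log2 fold changes was -0.72 (without d27 replicate 2) to -0.35 (without d27 replicate 1). The median over all genes was 0.31 with no filter and -0.12 with the offset, where the 29 were lower than it by a median difference of -0.71 and -0.28. The difference in share moved to 0.0059 percentage points over all entries. Signs turned for RPS4X (-0.0986), RPS6 (-0.0299) and RPS15A (-0.0781) with the offset, and for RPS15A (-0.0555) with pseudogene counts. With 1 library left out the range crossed 0 for RPS12 (-1.02 to 0.162), RPS23 (-0.474 to 0.0189), RPS28 (-0.492 to 0.29), RPS4X (-0.0936 to 0.346) and RPS15A (-0.0078 to 0.211). The cause was not tested. Over all genes, 551 lower and 1192 higher calls became 1231 and 1678 with DESeq2, 1438 and 2137 with the block, 285 and 889 with library totals, 71 and 697 without d27 replicate 1, and 2136 and 2715 without WT replicate 1. Depth limits RPS10 most, with 21 counts in its smallest library.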
